A study of Mus musculus with 18 samples.

Results

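Dorsal skin of mice that were tape-stripped repeatedly while receiving winged bean extract by mouth (TS/WB, 6 arrays) was compared with unstripped dorsal skin (NT, 6 arrays). These 12 arrays were taken by their titles from a series of 18, and the remaining 6 arrays (TS) came from skin that was stripped without extract. All mice were male HR-1 albino hairless animals, listed at 6 weeks of age, and had water and a standard diet freely. Stripping with cellophane tape was done on the left side of the back 3 times per week for 4 weeks, each time until water loss through the skin reached 70 to 100 g/m2/h. The extract, dissolved in 0.3% carboxymethylcellulose, was given at 200 mg/kg per day, 5 times per week for 5 weeks, and stripping started after the first of those weeks. Whether NT and TS mice received the carboxymethylcellulose solution, and whether NT skin came from separate mice, was not stated in the labels used here. No group received the extract without stripping, so the comparison of TS/WB with NT holds stripping and extract together.

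The outermost epidermis is a dead, cross-linked layer that keeps water in. Keratinocytes build it as they move up from the basal layer: they switch their keratins, make envelope proteins such as loricrin, the small proline-rich (Sprr) and late cornified envelope (Lce) proteins, and seal the space between cells with ceramide-rich lipids. Removing this layer with tape is a standard injury that starts keratinocyte proliferation and the use of stress keratins. The question here was which responses to stripping, as seen in TS, were also present on the arrays of the second stripped group.

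The promoters of 3 of the genes that rose most in TS/WB are shown first, because these genes were high in both stripped groups. They were picked among the windows of the 10 largest rises for holding the heptamer TGANTCA, a core motif of AP-1 factors, so the motif in them is a description and no finding. The windows run from 250 bases before to 50 bases after the annotated start, are from RefSeq on GRCm38.p6, and lie on the plus strand; capitals mark the motif. They are Rptn (chr3:93393449-93393748), Sprr2d (chr3:92338890-92339189) and Sprr2h (chr3:92385435-92385734), all in the cluster of epidermal differentiation genes on chromosome 3.
Rptn: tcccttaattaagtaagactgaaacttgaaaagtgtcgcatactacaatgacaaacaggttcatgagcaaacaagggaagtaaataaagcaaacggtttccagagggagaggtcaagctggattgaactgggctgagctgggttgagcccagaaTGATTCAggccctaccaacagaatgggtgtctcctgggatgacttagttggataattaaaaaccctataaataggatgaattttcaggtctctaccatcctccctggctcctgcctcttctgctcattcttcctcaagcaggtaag
Sprr2d: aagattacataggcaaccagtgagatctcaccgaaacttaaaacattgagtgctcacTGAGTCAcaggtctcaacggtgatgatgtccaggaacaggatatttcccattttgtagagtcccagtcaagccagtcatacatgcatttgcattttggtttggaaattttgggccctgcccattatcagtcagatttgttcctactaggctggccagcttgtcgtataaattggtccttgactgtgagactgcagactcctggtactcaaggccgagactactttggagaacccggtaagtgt
Sprr2h: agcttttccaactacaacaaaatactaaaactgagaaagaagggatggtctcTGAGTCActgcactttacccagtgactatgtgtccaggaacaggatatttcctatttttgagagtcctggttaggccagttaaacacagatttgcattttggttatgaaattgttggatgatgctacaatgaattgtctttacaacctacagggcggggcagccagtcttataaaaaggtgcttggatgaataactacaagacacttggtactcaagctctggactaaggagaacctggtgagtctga
The motif starts at base 155 of the Rptn window, base 58 of the Sprr2d window and base 53 of the Sprr2h window, which is at -96, -193 and -198 relative to the start. With any base at N, the pattern TGANTCA reads the same on both strands, although the base at N itself changes. Of the 10 genes with the largest rises in TS/WB, 8 had a window and 3 of these held the motif. Of the 10 with the largest falls, 8 had a window and 1 held it, Uqcrh. Among all 32851 windows of this length, 2565 (7.81%) held it. Counted by gene, as for the rises and falls, 2425 of 27025 (8.97%) held it in any window. A match describes these letters only, and nothing was measured about binding.

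The TS/WB arrays stood apart from all other arrays in a measure of RNA and labelling quality. The array carries control probe sets at the 5′ end, the middle and the 3′ end of the beta-actin and Gapdh transcripts, and the 3′ minus 5′ difference shows how far labelled RNA reaches from the 3′ end. For beta-actin this log2 difference was lowest -0.65, median -0.50 and highest -0.38 over the NT arrays, 0.08, 0.14 and 0.26 over the TS arrays, and 5.27, 5.74 and 5.96 over the TS/WB arrays. For Gapdh it was -0.77, -0.57 and -0.48 over NT, -0.62, -0.43 and -0.31 over TS, and 3.45, 3.57 and 4.41 over TS/WB. The 3′ probe set of Gapdh was itself lower, with a mean of 9.52 over TS/WB against 13.36 over NT. In both 3′ minus 5′ differences TS/WB lay apart from NT and from TS, while NT and TS overlapped for Gapdh. The TS/WB mean lay 6.19 above NT for beta-actin and 4.28 above NT for Gapdh (exact permutation test, two-sided, p = 0.00216). This p is the smallest that 6 against 6 arrays allow, and was the same after adjustment over 12 control measures. Because all 6 TS/WB arrays and none of the others have a high 3′ minus 5′ difference, its part in any difference between TS/WB and NT cannot be told apart from that of stripping and extract.

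**Figure D1:**
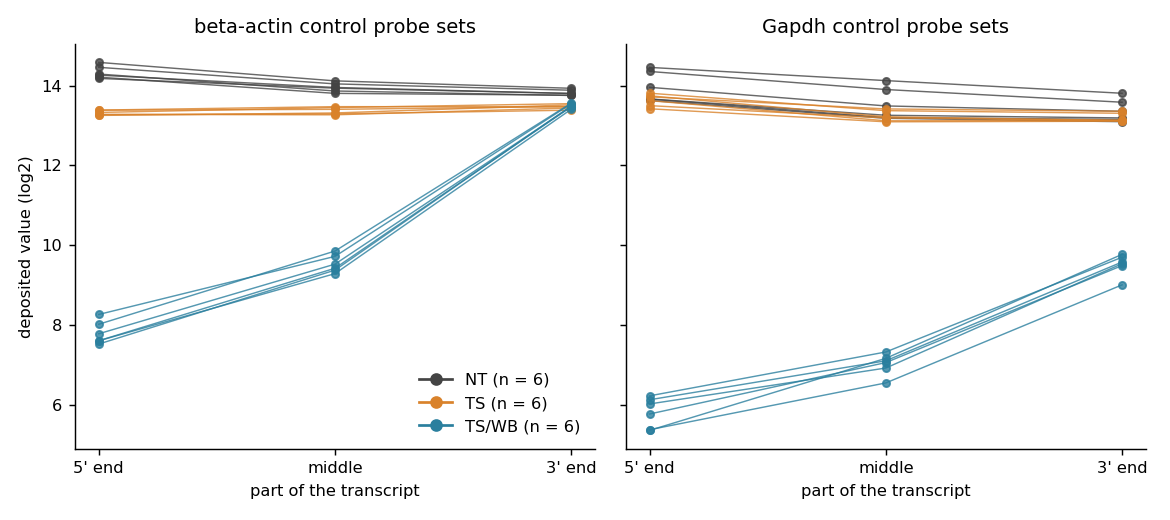
Deposited log2 values of the control probe sets at the 5′ end, middle and 3′ end of beta-actin (left) and Gapdh (right), with 1 line per array and 6 arrays per group. The TS/WB lines climb steeply from the 5′ to the 3′ end, by 5.27 to 5.96 for beta-actin, while the NT and TS lines are nearly level.

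On the whole array the separation was wide. Of 6843 genes whose probe set varied over the 18 arrays, 6035 (88.2%) passed the test between TS/WB and NT (limma, adjusted p under 0.05 after Benjamini-Hochberg). Of these, 3208 (46.9% of the 6843) had higher and 2827 (41.3%) had lower levels in TS/WB. In TS against NT 2767 passed (40.4%), 1323 higher (19.3%) and 1444 lower (21.1%), and in TS/WB against TS 5998 passed (87.7%), 48.4% higher and 39.2% lower. The groups TS/WB and NT did not overlap for 80.5% of the genes. Large rises were rare and large falls were not: 96 genes (1.4%) rose by at least 2 log2 units and 589 (8.61%) fell by that much. Passing the test therefore says little about a gene here, and the size of its difference and its place beside TS are given for each. The median difference of all varying genes was 0.07 as deposited, 0.19 after quantile normalization and 0.27 after median centring, so small differences have no settled direction. Counts of members of a gene list have these shares of all varying genes as their background. Array NT 5 held all 13 values above 16 in the table, among them albumin (Alb, a liver protein) at 19.04. The markers fixed for skin were present on every array: the suprabasal keratins Krt1 and Krt10, the collagens Col1a2 and Col3a1, and in NT the muscle gene Acta1 and the fat cell gene Adipoq. Hba-a1, the alpha chain of haemoglobin, was constant in the table.

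TS/WB and TS were both compared with the same 6 NT arrays, so the values of these comparisons are set side by side and are not independent of each other. Of the 15 genes with the largest rises in TS against NT, 13 were also higher in TS/WB than in NT (Krt16 and Aqp3 did not pass), with a median difference of 3.94 in TS/WB and 4.48 in TS; over all varying genes, 46.9% were higher in TS/WB and the median difference was 0.07. For 11 of the 15 the TS/WB and NT arrays did not overlap, which over all genes held in this direction for 43.1%; the groups of Krt16, Aqp3, Wfdc12 and Fos overlapped. Of the 15 largest falls in TS, 13 were also lower in TS/WB (41.3% of all genes), with medians of -4.54 in TS/WB and -3.31 in TS, and Krt27 and Krtap11-1 did not pass. The groups were apart for 13 (37.4% of all genes in this direction). The direct test of TS/WB against TS put 2 of the 15 rises further from NT than in TS and 6 less far. The other 7 were not past the threshold. Of the falls, 6 were further, 1 less far and 8 not past it. The 6 rises less far from NT and the 6 falls further from it were lower in TS/WB than in TS. This share was near the 39.2% of all varying genes that were lower in TS/WB than in TS. Higher in TS/WB than in TS were only the 2 rises further from NT and the 1 fall less far. Among all varying genes 48.4% were higher.

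**Figure D2:**
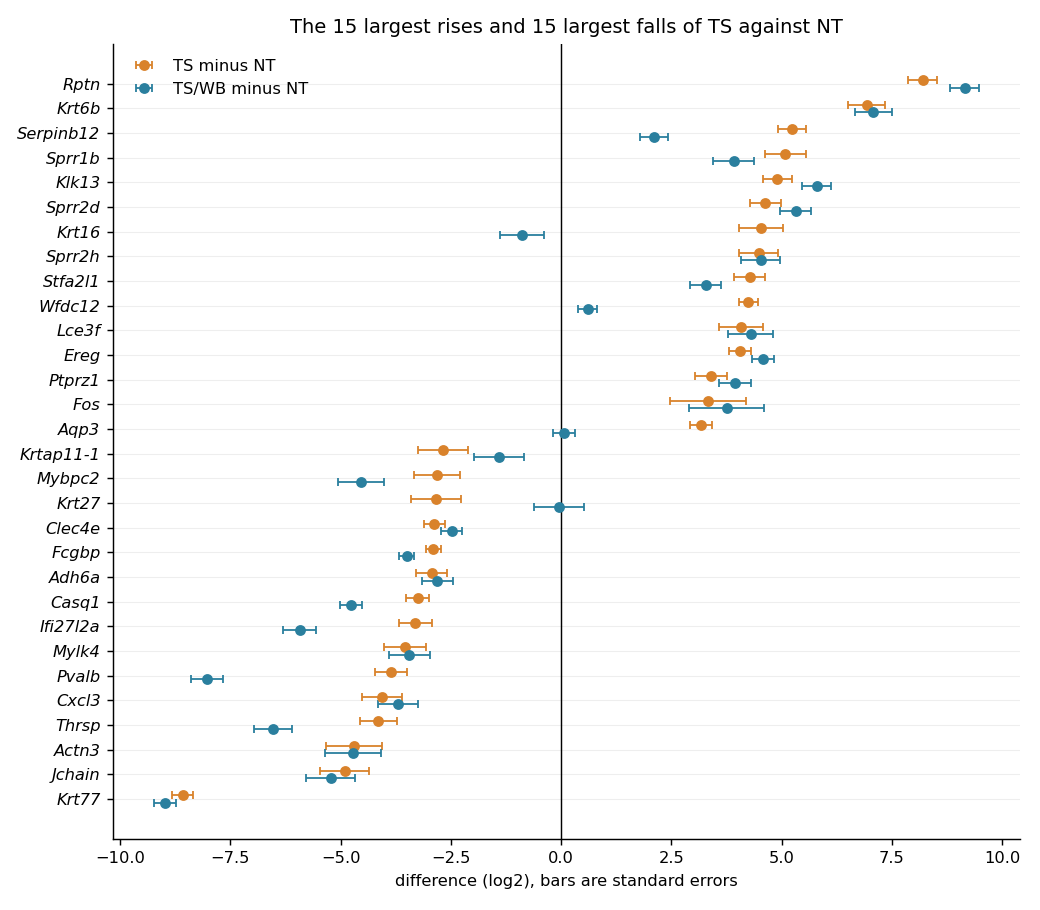
Differences from NT on a log2 scale for the 15 largest rises and 15 largest falls of TS against NT, in TS (orange) and TS/WB (blue), with standard errors of the limma fit. Krt6b and Krt77 differ from NT by 7.08 and -8.98 in TS/WB and by 6.93 and -8.58 in TS, while the TS/WB points of Krt16, Aqp3, Wfdc12 and Krt27 lie near 0.

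The strongest recurring rise was that of repetin (Rptn), an S100 fused-type protein of the cornified envelope. Its level was 4.28, 5.15 and 5.76 (lowest, median and highest) over the NT arrays and 13.16, 14.38 and 14.66 over the TS/WB arrays. Every TS/WB array lay far above every NT array. The difference was 9.14 ± 0.32 (SE, n = 6 per group, limma adjusted p = 9.15e-13), with 8.20 in TS, and TS/WB lay 0.95 above TS (95% interval 0.26 to 1.64, adjusted p = 0.0243). NT levels of Rptn were below the median of all values in the table, 6.93, so no fold is given. Among the other S100 fused-type proteins, filaggrin (Flg), which aggregates keratin filaments, rose by 1.66 (1.05 in TS), and hornerin (Hrnr) rose by 1.97 (1.96 in TS). Trichohyalin-like Tchhl1 fell by 0.82 (-0.80 in TS). Of the 5 varying members 3 rose and 1 fell, beside 46.9% and 41.3% of all varying genes. Tchh, trichohyalin of the hair root sheath, differed by 0.32 without passing, against -2.09 in TS.

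Keratin 6b (Krt6b), a stress keratin induced by wounding, was 6.47, 7.41 and 8.78 over NT, 13.66, 14.41 and 15.25 over TS, and 13.51, 14.85 and 15.26 over TS/WB. Both stripped groups lay wholly above NT. The TS/WB difference was 7.08 ± 0.42 (SE, n = 6 per group, limma adjusted p = 5.49e-10), and TS/WB differed from TS by 0.15 (95% interval -0.75 to 1.04). The NT mean of 7.56 lay near the table median of 6.93 and the lowest NT value under it, so no fold is given. Other stress keratin genes did otherwise. Krt16, which pairs with keratin 6, was 8.61, 9.31 and 9.97 over NT, 12.51, 13.74 and 15 over TS, and 7.08, 8.39 and 9.69 over TS/WB. The TS/WB arrays overlapped NT and lay below all TS arrays. The difference from NT was -0.88 ± 0.50 and did not pass (adjusted p = 0.172), and TS/WB minus TS was -5.40 (adjusted p = 1.39e-07). Krt6a fell by 0.93 where TS rose by 1.41, and Krt17, a stress and follicle keratin, fell by 4.72 where TS differed by -0.33 without passing. Krt6a had 3 varying probe sets, which differed from NT by -0.93, -2.70 and -0.69 in TS/WB and by 1.41, 3.30 and 0.54 in TS.

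Growth factor and protease inhibitor genes of stressed epidermis recurred in part. Epiregulin (Ereg), a ligand of the epidermal growth factor receptor, had 6.12, 6.69 and 7.89 over NT and 10.89, 11.39 and 11.51 over TS/WB. The groups were apart, with a difference of 4.57 ± 0.26 (adjusted p = 2.58e-10; 4.05 in TS). Stfa3, a stefin that inhibits cysteine proteases, rose by 2.77 (2.74 in TS; TS/WB minus TS 0.03, 95% interval -0.40 to 0.46), and its relative Stfa2l1 rose by 3.28 (4.27 in TS). The gap junction protein gene Gjb6 rose by 3.06 (2.91 in TS), whereas Gjb2 differed by 0.48 without passing against 2.69 in TS. Cytokine genes of the interleukin 36 group split: Il1f6 rose by 2.01 (2.77 in TS), while Il1f9 fell by 1.93 and Il1f8 fell by 1.5, both of which had risen in TS, by 1.75 and 1.76. In the list of stress keratins, growth factors and alarmins, 6 of 18 varying members rose and 7 fell, with a median of -0.26. Of all varying genes 46.9% rose and 41.3% fell, so the share that fell was near that of the whole array. In TS 12 rose, with a median of 1.84, where 19.3% of all varying genes rose. S100a8, an alarmin of stressed skin, differed by 1.45 without passing (adjusted p = 0.163), and passed without array NT 4 (2.10, adjusted p = 0.0175). S100a9 went the other way and did not pass either. It passed as lower without array TS/WB 3 (-2.12, adjusted p = 0.0493) and over varying probe sets alone (-1.75, adjusted p = 0.0447).

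**Figure D3:**
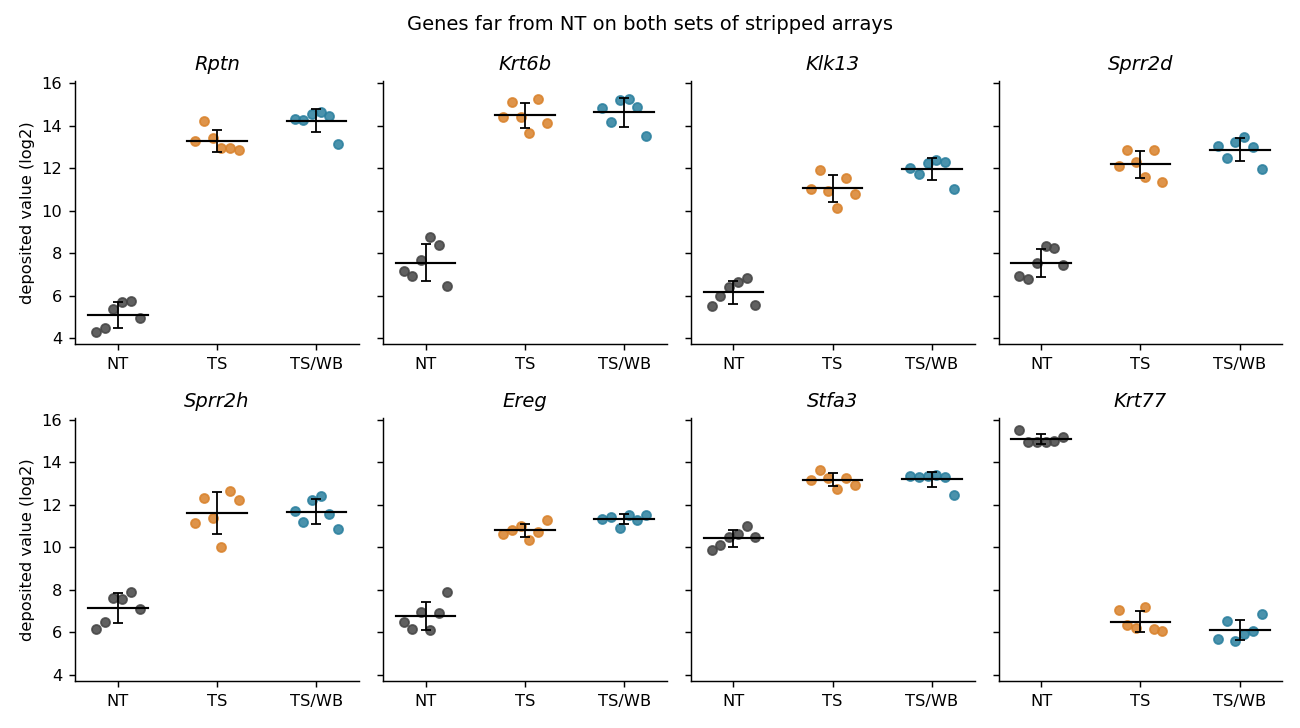
Deposited log2 values of 8 genes on the 6 NT, 6 TS and 6 TS/WB arrays; points are arrays, black bars the mean and standard deviation. For all 8 genes the TS/WB arrays lie apart from the NT arrays and close to the TS arrays, with Krt77 as the gene that fell.

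Members of the same envelope family differed in their response. Sprr2d rose by 5.32 (adjusted p = 2.07e-09), from 6.78, 7.51 and 8.36 over NT to 11.97, 13.02 and 13.45 over TS/WB, against 4.63 in TS. Sprr2h rose by 4.52 (4.48 in TS) and Sprr1b by 3.91 (5.09 in TS). The arrays of TS/WB and NT did not overlap for these 3 genes, whose proteins are cross-linked into the envelope. Sprr1a fell by 1.22, whereas TS differed by 0.51 without passing, so 3 of 8 varying Sprr members rose and 1 fell (4 rose in TS); without array TS/WB 3, 2 fell. Among late envelope genes, Lce3f rose by 4.29 (4.07 in TS), while Lce3c, another Lce3 member, differed by 0.31 without passing against 3.08 in TS. The Lce1 members that rose were Lce1a1, Lce1a2, Lce1b, Lce1c, Lce1d, Lce1f, Lce1g, Lce1h and Lce1i, by 0.89 (Lce1a1) to 2.16 (Lce1f); Lce1m fell by 1.90, and Lce1l differed by 0.19 without passing. In TS Lce1f rose by 1.12. Loricrin (Lor), the most abundant envelope protein, rose by 0.89 and differed by 0.51 in TS without passing. The 3 probe sets of Lor were higher by 0.89, 0.98 and 1.96 in TS/WB. Lce proteins are close in sequence, so single members may share signal. Of 31 varying late envelope genes 13 rose and 11 fell, with a median of 0.19, shares near the 46.9% and 41.3% of all varying genes. In TS 15 rose, where 19.3% of all varying genes did. Those that fell here include transglutaminase 1 (Tgm1), which cross-links the envelope, at -0.66 (risen by 1.23 in TS), cornifelin (Cnfn) at -2.01 (risen by 1.44 in TS) and corneodesmosin (Cdsn) at -1.26 (risen by 0.95 in TS).

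The keratins of normal differentiation moved in both directions, in the suprabasal layers as in the whole list. Krt77, a suprabasal keratin, was 14.95, 14.98 and 15.54 over NT, 6.08, 6.29 and 7.21 over TS, and 5.6, 5.99 and 6.85 over TS/WB. Every TS/WB array lay below the table median. Krt77 fell by 8.98 ± 0.24 in TS/WB (adjusted p = 2.39e-14), with -8.58 in TS; TS/WB minus TS was -0.40 (95% interval -0.91 to 0.11). The suprabasal keratins Krt2 and Krt80 fell too (-0.96 and -0.73), and the main suprabasal pair rose: Krt1 by 1.34 ± 0.17 (1.34 in TS) and Krt10 by 0.68 ± 0.09 (0.55 in TS). The basal pair was lower: Krt5 fell by 2.50 ± 0.23 and Krt14 fell by 2.19 ± 0.18, where TS differed by 0.70 for Krt5 without passing and rose by 0.70 for Krt14. The 3 probe sets of Krt14 fell, with differences of -2.19, -1.11 and -3.64. Krt15, a basal and bulge keratin, fell by 3.75 (-0.95 in TS). Trp63, the transcription factor of the basal layer, rose by 1.98 (0.63 in TS), so basal genes did not all move together. Of 17 varying members of the list 7 rose and 9 fell (9 and 3 in TS), beside 46.9% and 41.3% of all varying genes (19.3% and 21.1% in TS). In whole skin, fewer cells of a type and less RNA per cell cannot be told apart.

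**Figure D4:**
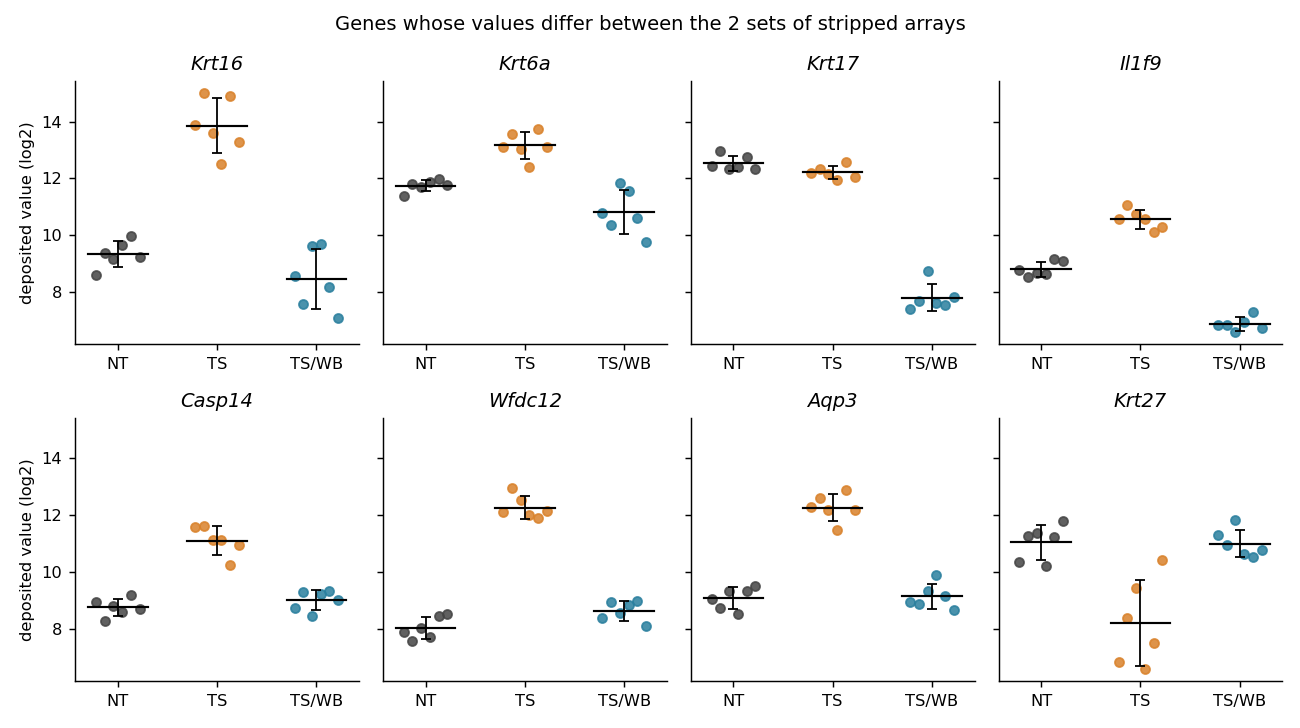
Deposited log2 values of 8 genes on the 6 NT, 6 TS and 6 TS/WB arrays; points are arrays, black bars the mean and standard deviation. The TS/WB arrays of Krt16, Krt6a, Krt17, Il1f9, Casp14, Wfdc12 and Aqp3 lie below the TS arrays, and those of Krt27 lie above them.

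Among proteases and their inhibitors, kallikrein 13 (Klk13), one of the serine proteases of shedding skin, rose by 5.79 ± 0.33 (adjusted p = 2.75e-10), from 5.51, 6.20 and 6.82 over NT to 11, 12.12 and 12.39 over TS/WB, and by 4.90 in TS. Its relatives did not follow. Klk8, Klk6 and Klk9 fell, with differences of -1.22, -1.67 and -0.47, and had risen by 1.94, 1.04 and 1.81 in TS. Serpinb12, a serine protease inhibitor, rose by 2.11 (adjusted p = 3.75e-05), and differed by -3.13 from TS, where it rose by 5.24. Its second varying probe set rose by only 0.50 in TS/WB. Wfdc12, a small secreted inhibitor, had 7.59, 7.95 and 8.52 over NT, 11.89, 12.12 and 12.94 over TS and 8.10, 8.68 and 9.0 over TS/WB. TS/WB overlapped NT; the difference of 0.60 (adjusted p = 0.0308) did not pass when NT 1, NT 2, NT 4, TS/WB 2, TS/WB 4 or TS/WB 5 was left out (adjusted p 0.0573 to 0.0732). Caspase 14 (Casp14), which takes part in filaggrin breakdown, differed by 0.25 without passing, against 2.35 in TS. Serpinb2 rose by 2.77 (2.47 in TS). Over the list of proteases and inhibitors 8 of 28 varying members rose and 14 fell, with a median of -0.40. These shares were 46.9% and 41.3% among all varying genes. In TS 17 rose and 1 fell with a median of 0.54, beside 19.3% and 21.1% of all varying genes.

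Cell contact and lipid genes held both kinds of response. Desmocollin 1 (Dsc1), the adhesion protein of upper epidermal desmosomes, was 9.09, 9.86 and 10.06 over NT and 12.76, 12.91 and 13.18 over TS/WB. The groups were apart, and the difference was 3.24 ± 0.17 (adjusted p = 1.52e-10), with 2.39 in TS. The second varying probe set of Dsc1 rose by only 0.93 in TS/WB. Dsg1a and Dsg1b, the desmogleins of the same layer, rose by 1.29 and 1.36 (0.91 and 1.49 in TS), while the plakophilins Pkp1 and Pkp3 fell (-0.76 and -0.59) and had risen in TS by 0.51 and 0.71. Of 20 varying junction genes 12 rose and 5 fell (14 and 1 in TS), with a median of 0.56. The shares of all varying genes were 46.9% and 41.3% (19.3% and 21.1% in TS). Ceramide synthase 3 (Cers3), which makes the very long-chain ceramides of the barrier, rose by 2.68 ± 0.19 (1.99 in TS), and the lipid transporter Abca12 rose by 1.15 (0.44 in TS). The subunit Sptlc1 of the first enzyme of sphingolipid synthesis fell by 1.5 (risen by 0.95 in TS), and the lipoxygenase Alox12b fell by 0.74 (risen by 0.75 in TS). Of 26 varying barrier lipid genes 8 rose and 12 fell, and the share that fell was near the 41.3% of all varying genes, of which 46.9% rose. In TS 15 rose and 2 fell, beside 19.3% and 21.1% of all varying genes. Aquaporin 3 (Aqp3), the epidermal water and glycerol channel, had 8.52, 9.20 and 9.52 over NT, 11.49, 12.23 and 12.87 over TS and 8.67, 9.06 and 9.90 over TS/WB. TS/WB overlapped NT, with a difference of 0.06 ± 0.25, and its other probe sets differed by -0.21 and -2.09, where all 3 were higher by 3.17 to 3.98 in TS.

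Other secreted and regulatory genes rose or fell in TS/WB, some of them without passing in TS. Beta-defensin 1 (Defb1), an antimicrobial peptide, rose by 4.03 ± 0.19 (adjusted p = 2.97e-11; 2.83 in TS), and its second probe set by 3.08. Saa3, an acute phase protein, rose by 2.59 and differed by 2.26 in TS without passing. Fos, an immediate early transcription factor, rose by 3.75 ± 0.86 (adjusted p = 0.0016; 3.32 in TS), but its values were spread, 6.77, 8.52 and 10.77 over NT and 10.02, 12.60 and 14.40 over TS/WB. The Fos groups overlapped. Junb rose by 1.49 (0.81 in TS). In the list of heat shock and immediate early genes, 17 of the 27 that varied rose and 5 fell, with a median of 0.60. In TS 10 rose and 2 fell, with a median of 0.22. Beside these stand 46.9% and 41.3% of all varying genes in TS/WB, and 19.3% and 21.1% in TS. Depp1, a stress-responsive gene, rose by 4.44 (2.32 in TS), and Trim63, a ubiquitin ligase of muscle wasting, rose by 4.23 (2.66 in TS). Among clock genes Dbp, an output gene, fell by 2.56 (-2.62 in TS), and Cry1 and Clock rose by 2.61 and 1.54 (TS differed by 0.23 for Cry1 without passing, and rose by 0.63 for Clock). The hour at which skin was taken was not stated in the labels used here.

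Proliferation genes moved in both directions. Mki67, a marker of cycling cells, was 8.58, 8.75 and 8.98 over NT, 8.99, 9.62 and 10.02 over TS and 9.18, 10.02 and 10.62 over TS/WB. All TS/WB arrays lay above all NT arrays, by 1.26 ± 0.24 on average (adjusted p = 3.38e-04; 0.84 in TS). Cdca8, Rrm2 and Cdc20, which act in mitosis and nucleotide supply, rose by 2.57, 1.96 and 1.44 (1.52, 1.61 and 1.23 in TS). Cdk1, the mitotic kinase, fell by 0.57 (risen by 0.84 in TS), and Pcna, the sliding clamp of DNA replication, fell by 3.23 (0.03 in TS, not passed). Of 39 varying cell cycle genes 18 rose and 7 fell, with a median of 0.22; over all varying genes 46.9% rose and 41.3% fell, so the share that rose was near that of the whole array. In TS 22 rose, with a median of 0.59, where 19.3% of all varying genes rose. With the mean of all probe sets of each gene in place of the brightest, 10 rose and 9 fell in TS/WB, with a median of 0.08.

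Muscle and fat cell genes, which mark tissue below the epidermis, were lower in both stripped groups. Parvalbumin (Pvalb), a calcium-binding protein of fast muscle fibres, was 12.68, 13.69 and 14.79 over NT, 9.18, 9.93 and 10.46 over TS and 4.98, 5.78 and 6.23 over TS/WB. The 3 groups did not overlap, and Pvalb fell by 8.02 ± 0.36 in TS/WB (adjusted p = 1.69e-11), with -3.86 in TS. Of 34 varying muscle genes 29 fell, with a median of -3.52, where 41.3% of all varying genes fell. Only 1 rose, Tpm2, by 0.68, and 2 or 3 rose under median centring or quantile normalization. In TS 28 fell, with a median of -1.59, where 21.1% of all varying genes fell. Actn3 and Mylk4, of fast fibres and of the contractile apparatus, fell in both stripped groups, with differences of -4.73 and -3.44 in TS/WB and of -4.69 and -3.54 in TS. Mylpf, a fast myosin light chain, fell by 7.36 against -1.69 in TS, so the falls of single muscle genes differed in how far they matched TS. Adiponectin (Adipoq), a hormone of fat cells, fell by 4.6 ± 0.26 (-2.19 in TS), and Thrsp, a regulator of fat synthesis, fell by 6.53 ± 0.43 (-4.15 in TS). In the fat cell list 20 of 28 varying members fell, beside 41.3% of all varying genes. The 2 that rose were Srebf1 and Acly. Without array NT 2, 4 rose, and 5 rose under quantile normalization or median centring.

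Many immune cell genes were also lower, but not all. Of the markers fixed for immune cells, Cd74 and Lyz2 fell (-3.77 and -4.10) and Tyrobp fell by only 0.30. Ptprc differed by -0.21 without passing. Cd209a, a lectin of dermal dendritic cells, was 9.76, 9.85 and 10.68 over NT, 8.24, 8.54 and 8.71 over TS and 5.53, 5.78 and 6.20 over TS/WB, a fall of 4.24 ± 0.16 in TS/WB (adjusted p = 1.69e-12). The 3 groups lay apart in that order. As background to the counts below, 41.3% of all varying genes fell in TS/WB and 21.1% in TS. Of 17 varying dendritic cell genes 13 fell (10 in TS), with a median of -2.55; Itgae and Clec10a rose, but neither passed without NT 6, TS/WB 2, TS/WB 5 or TS/WB 6, and only 1 did without NT 1 or NT 5. Of 30 varying macrophage genes 19 fell (15 in TS); 1 rose, 2 without NT 2, NT 4 or NT 5, and 7 or 8 under quantile normalization or median centring. Genes of a single complex did not move together: C1qa and C1qc, chains of complement C1q, fell (-2.15 and -0.94), while C1qb differed by 0.17 without passing (-0.72 in TS, passed). The class II chains H2-Ab1 and H2-Aa differed by -2.74, which passed, and 0.04, which did not. The antibody joining chain (Jchain) fell by 5.23 ± 0.56 (-4.91 in TS), and the neutrophil-attracting chemokine Cxcl3 fell by 3.71 ± 0.45 (-4.07 in TS). Jchain was spread over NT, 8.49, 10.98 and 12.67, and lay at 5.36, 5.76 and 5.84 over TS/WB. Interferon-induced Ifi27l2a fell by 5.93 ± 0.37 (-3.31 in TS), and 16 of 24 varying interferon genes fell (21 in TS), with 1 risen, 2 without NT 4 or NT 6, and 3 under quantile normalization or median centring.

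Mast cell and hair genes followed TS only in part. Tpsab1, a mast cell tryptase, was 6.97, 7.59 and 9.06 over NT, 9.11, 10.37 and 10.80 over TS and 6.61, 6.91 and 8.34 over TS/WB. TS/WB overlapped NT, with a difference of -0.58 ± 0.40 (adjusted p = 0.286), and TS/WB minus TS was -3.02 (adjusted p = 1.00e-05). The chymases Mcpt4 and Cma1 fell (-4.46 and -3.06), and differed by -0.25 and 0.14 in TS without passing. Of 10 varying mast cell genes 7 fell and 2 rose, 1 without NT 2, NT 3 or TS/WB 6 (in TS 5 rose). Among all varying genes 41.3% fell and 46.9% rose in TS/WB, and 19.3% rose in TS. Krt27, an inner root sheath keratin, was 10.21, 11.25 and 11.79 over NT, 6.59, 7.95 and 10.42 over TS and 10.52, 10.86 and 11.83 over TS/WB. TS/WB overlapped NT, with a difference of -0.04 ± 0.57, and lay 2.80 above TS (adjusted p = 5.87e-04). Krtap11-1, a hair shaft protein, differed by -1.41 without passing (adjusted p = 0.0511; -2.68 in TS), and passed without NT 1, NT 4 or TS/WB 1 (adjusted p 0.0440 to 0.0494). Of 35 varying hair genes 11 fell and 0 rose, beside 41.3% and 46.9% of all varying genes. Under quantile normalization or median centring 1 rose. The median over the 35 was -0.18, and 0.03 under median centring. In TS 31 fell, with a median of -1.74, where 21.1% of all varying genes fell. In TS/WB against TS, 17 hair genes were higher, a share near the 48.4% of all varying genes. Only 2 were lower, where 39.2% of all varying genes were. Krtap7-1 and S100a3 fell in both groups, with differences of -4.77 and -4.41 in TS/WB and of -2.40 and -2.23 in TS.

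Probe sets of the same gene lie at different places along its transcript, and they disagreed often in TS/WB. Over single probe sets 89.3% of those that varied passed in TS/WB against NT and 38.1% in TS against NT. Of 2192 genes with at least 2 varying probe sets, 878 (40.1%) had probe sets passing in both directions in TS/WB against NT, and 33 (1.51%) did in TS against NT. All probe sets passed in 1 direction for 959 genes (43.8%), 528 up and 431 down. Bleomycin hydrolase (Blmh), which degrades filaggrin fragments, rose by 3.81 on the probe set used and fell by 0.92 on the other, with 2.23 and 1.49 in TS. Desmoplakin (Dsp) had 0.65 and 0.81 on 2 probe sets and -0.69 on the third, and Degs1, an enzyme of ceramide synthesis, had 1.82 and -0.88. Col1a1, the main dermal collagen chain, differed by -0.05 without passing on the brighter probe set over all arrays and fell by 4.20 on the other. For muscle troponin Tnni2 the probe sets fell, with differences of -8.0, -0.35 and -0.28. Of the 137 genes named by rule, 43 had at least 2 varying probe sets: 34 of them passed in 1 direction throughout and 6 in both directions, Blmh, Dsp, Degs1, Xbp1, Rps9 and Tyrp1. Genes with all probe sets in accord included Defb1, Depp1, Lor, Lce1f, Thrsp and Krt14. The recurring genes Rptn, Krt6b, Krt77, Klk13, Sprr2d, Sprr2h, Ereg, Stfa3, Sprr1b and Lce3f could each be read from only 1 varying probe set.

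**Figure D5:**
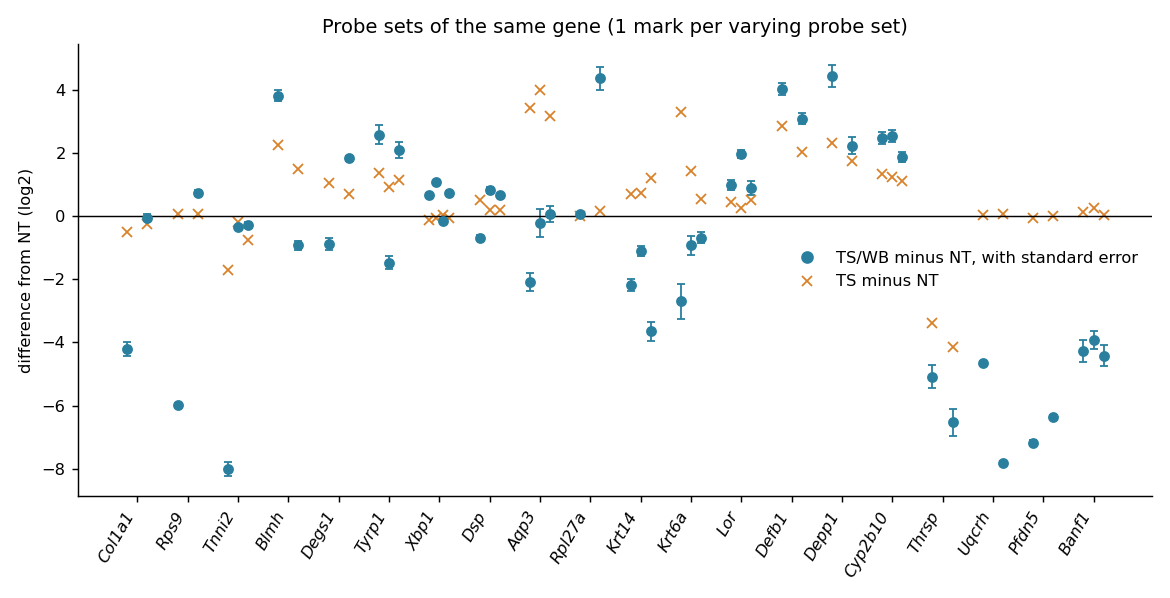
Differences from NT on a log2 scale for each varying probe set of selected genes; filled circles are TS/WB minus NT with standard errors of the limma fit, crosses are TS minus NT. Probe sets of Defb1, Lor and Thrsp lie on 1 side of 0, while those of Rps9, Blmh, Dsp and Tyrp1 lie on both sides in TS/WB.

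Genes that every cell uses also differed widely in TS/WB. Uqcrh, a subunit of respiratory complex III, was 12.88, 13.07 and 13.20 over NT, 12.91, 13.15 and 13.25 over TS and 5.11, 5.25 and 5.33 over TS/WB. It fell by 7.81 ± 0.07 in TS/WB and differed by 0.07 in TS without passing, and its other probe set fell by 4.64. Of 76 varying respiratory chain genes 42 fell and 27 rose, beside 41.3% and 46.9% of all varying genes. With the mean of all probe sets 65 fell and 10 rose. In TS 23 fell and 2 rose, beside 21.1% and 19.3% of all varying genes. The ribosomal protein genes Rps9 and Rpl27a differed by -5.97 and 4.35 in TS/WB, both passing, and by 0.05 and 0.16 in TS, neither passing. Their second varying probe sets rose by 0.73 and 0.06 in TS/WB. Of 45 varying ribosomal protein genes 27 fell and 15 rose, with a median of -0.75, against a median of 0.09 in TS. The same 41.3% and 46.9% of all varying genes are the background of these counts. Differences of 4 log2 units or more, such as those of Rptn, Krt6b and Klk13, were reached in TS/WB by 13 rising genes (0.19%) and 96 falling genes (1.4%), and Rpl27a and Uqcrh were among them although neither passed in TS. The correlation of TS/WB with NT arrays over the varying probe sets was 0.49 to 0.62, that of TS with NT arrays 0.84 to 0.94, and that among TS/WB arrays 0.95 to 0.99, as a description of values that share probe sets.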

How the data were processed

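Whole-genome expression was measured on Affymetrix mouse arrays from total RNA of dorsal skin, 100 ng per labelling, per the labels' protocols. The authors deposited 1 table of 45101 probe sets on 18 arrays, whose values look like log2 expression; how they were summarised and normalized was not stated in the labels or headers, so the log base rests on the values alone. After 64 control probe sets were set aside, 45037 were tested, of which 11946 varied by at least 0.01 log2 over the 18 arrays and 33091 were constant, as deposited. Gene names came from the platform annotation: 34957 probe sets had 1 symbol, 920 several and 9160 none. Each gene was read from the probe set with the highest mean among those with 1 symbol, which gave 18201 genes, 6843 of them varying.

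The 18 arrays entered a single linear model (limma 3.58.1 under R 4.3.3; lmFit followed by eBayes; two-sided tests), with contrasts between the 3 groups, and p-values were adjusted over all 45037 probe sets (Benjamini-Hochberg). A gene passed at an adjusted p under 0.05 with a difference of at least 0.01. Differences are in log2 units and differences with ± are given with their standard error; no fold is given where a group mean was under the table median of 6.93. The labels call the arrays of a group biological replicates, and the number of arrays limits the precision. The procedure was tested on simulated data. Genes named are the 10 largest rises and falls of TS/WB against NT, the 10 largest with several probe sets in accord, the 15 largest rises and falls of TS against NT, the 2 members of each of 33 lists with the smallest p, and a set of epidermal and marker genes, 137 in all, of which a part is printed, together with further members of the lists. Clone names and antigen receptor segments were left out. The members and lists were chosen with earlier results of these data known. Promoter windows are from RefSeq on GRCm38.p6. Alternatives were quantile normalization, median centring, the 12 arrays alone, varying probe sets alone, array weights, the mean of probe sets, a minimum of 1.5-fold, a replicate block, and each array left out in turn.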

Additional observations from a re-analysis of the deposited data

Results flagged for a closer look

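In 18 of 278 groups of 6 arrays examined, 1 array lay far from the other 5 for its group's spread, which chance alone gives in about 1 of 20 groups. In TS/WB these were array 6 for Rptn (13.16, group median 14.38) and Stfa3 (12.49, median 13.34), array 3 for Ereg (10.89, median 11.39), Ggct (11.72, median 12.20), Krt17 (8.74, median 7.66) and Ivl (8.32, median 8.74), array 4 for Trim63 (13.17, median 11.84), and array 2 for the Gapdh 3′ minus 5′ difference (4.41, median 3.57). In NT they were array 2 for Fcgbp (9.59, median 10.51), Csta1 (9.96, median 10.41), Dsp (12.65, median 12.87) and Retn (11.95, median 10.98), array 4 for Tecr (11.55, median 11.88) and S100a8 (12.03, median 8.23), array 5 for Apoc1 (13.26, median 12.41) and Cidea (11.02, median 11.39), array 6 for Cry1 (7.74, median 7.05) and array 3 for Pmp22 (12.45, median 11.86). Rptn on the lowest TS/WB array was still above its highest value on any NT array, 5.76, and so was Ereg, whose highest NT value was 7.89.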

How the results depend on the processing

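The counts of genes that passed between TS/WB and NT stayed within 1.5 times the values reported under the alternatives run, except that 2132 genes rather than 3208 were higher when a difference of at least 1.5-fold was required, because smaller differences then drop out. With the mean of the probe sets of each gene, 2780 were higher and 3128 lower. Quantile normalization gave 3537 higher and 2617 lower, and median centring 3672 and 2471. Leaving out each array in turn gave 3168 to 3202 higher and 2777 to 2819 lower, and differences in the 3′ minus 5′ measure of 6.14 to 6.28 for beta-actin and 4.14 to 4.33 for Gapdh. Of the values of named genes under these alternatives, 2835 kept their direction and side of the threshold, 24 lost their call, 16 gained one and 1 changed sign: Col1a1 at 0.31 under quantile normalization (adjusted p = 0.0178), and the cause was not tested. Of the counts for gene lists, 46 moved by over 1.5 times and 944 did not, and most of those that moved were counts of 5 or fewer.

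The replicate numbers do not pair the arrays: the deviations of NT and TS/WB arrays with the same number correlated at -0.05 to 0.14. A fit with the number as a block gave 3187 genes higher and 2799 lower; among the named genes Wfdc12 no longer passed (adjusted p = 0.0657) and Krtap11-1 passed (adjusted p = 0.0327).

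The 3′ minus 5′ difference marks every TS/WB array, so no alternative here separates it from the treatment. With 6 arrays per group and a nearly complete separation of the groups, a passed test carries little about a single gene, and values near the table median of 6.93 cannot give a ratio.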

Other observations

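Further gene groups moved in both directions in TS/WB against NT. Of 15 varying genes of cholesterol synthesis 7 rose and 7 fell, shares near the 46.9% and 41.3% of all varying genes. In TS 8 rose, where 19.3% of all varying genes did. Fdps and Sqle, enzymes of the pathway, fell (-3.60 and -1.51) and had risen by 0.67 and 0.98 in TS, while Fdft1, Idi1 and Hsd17b7 rose by 1.32, 1.34 and 2.18 (0.67, 0.50 and 0.95 in TS). In the matrix list 23 of 39 varying genes fell and 10 rose, against 7 and 5 in TS. Over the whole array 41.3% of varying genes fell and 46.9% rose, against 21.1% and 19.3% in TS. With the mean of all probe sets of each gene, 28 matrix genes fell and 6 rose. Lumican (Lum) and Fbln2, of the dermal matrix, fell (-3.02 and -2.83) and differed by -0.23 and 0.01 in TS without passing. Fibronectin (Fn1) and Col14a1 fell, each with a difference of -1.46, and had -1.86 and -2.03 in TS. Ccn2, a matrix-associated growth regulator, rose by 3.24 and differed by 0.33 in TS without passing.

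Of 27 varying chemokine and type 2 genes 18 fell and 3 rose (10 and 1 in TS), and 5 rose under median centring. For this count and those that follow, 41.3% of all varying genes fell and 46.9% rose (21.1% and 19.3% in TS). Cxcl2 and Ccl24 fell (-2.11 and -2.67, against -2.16 and -1.67 in TS). Of 12 varying antimicrobial genes 7 fell and 2 rose (2 and 2 in TS); 4 rose under quantile normalization, median centring or without NT 4. Of 13 varying sebaceous gland genes 8 fell (3 in TS), among them Scd3, a fatty acid desaturase, at -3.40 (-1.41 in TS).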
